A study of Mus musculus with 6 samples.

Results

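The genes described here are 10 components and targets of the bone morphogenetic protein (BMP) and ALK1 pathway of endothelial cells: Eng, Acvrl1, Bmpr2, Smad6, Smad7, Smad9, Id1, Id2, Id3 and Atoh8. They were chosen by gene symbol, with earlier results of these data known but without a measured threshold. All 10 had a row among the 18956 genes of the table. RNA was sequenced from mouse lung endothelial cells in 6 libraries. Of these, 3 carried the labels WT and Cre-negative (WT 1 to 3) and 3 carried the labels CSE-KO and Cre-positive (numbered 1 to 3 likewise). CSE is cystathionine gamma-lyase, the enzyme encoded by Cth, which releases cysteine from cystathionine. The sources used here do not give the Cre driver, the deleted part of Cth, the age of the mice or the culture of the cells, nor whether each replicate was its own animal or culture. The comparison asked how transcripts of this pathway differed between the libraries labelled CSE-KO and those labelled WT. Values are normalized counts, that is read counts divided by a factor for each library, and were compared between groups with limma on log2(value + 0.5). A gene is said to have risen, fallen or changed where its Benjamini-Hochberg adjusted p over all genes tested was under 0.05.

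In this pathway, circulating or locally made BMP ligands bind a complex of a type I receptor kinase, such as ALK1 (the product of Acvrl1), and a type II receptor kinase, such as BMPR2, and endoglin (Eng) presents ligand to it. The activated type I receptor phosphorylates the SMAD proteins encoded by Smad1, Smad5 and Smad9, which enter the nucleus with SMAD4 and raise transcription of Id genes, Atoh8 and the inhibitory SMAD genes. SMAD6 and SMAD7 then act back on the receptors. Inherited mutations of ENG and ACVRL1 cause hereditary haemorrhagic telangiectasia and those of BMPR2 cause heritable pulmonary arterial hypertension, which places the pathway at the centre of lung vascular biology.

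Promoter windows from RefSeq (GRCm38.p6, 300 bases around each annotated start of transcription) were matched for 7 of the genes: Bmpr2, Eng, Smad9, Id3, Atoh8, Smad6 and Id2. Each was searched for a palindrome of the SMAD-binding element, GTCTAGAC, and for GGCGCC, a GC-rich sequence bound by BMP-activated SMADs. Each motif reads alike on both strands, and they do not overlap each other in these windows. GTCTAGAC was found in 1 of the 7 windows and in 0.213% of all 32851 promoter windows. GGCGCC was found in 3 of the 7 and in 11.9% of all windows. The 4 stretches that hold a match are shown. Of their genes, Smad6 and Smad9 were called higher, Bmpr2 fell and Id2 did not pass. Smad7, which was also called higher, was left out before windows were matched and so was not searched. Id1 and Acvrl1 had no window and were not searched either. Capitals mark the motif, and every stretch is written 5′ to 3′ on the strand of its gene.
Smad6 (chr9:64022056-64022205, minus strand): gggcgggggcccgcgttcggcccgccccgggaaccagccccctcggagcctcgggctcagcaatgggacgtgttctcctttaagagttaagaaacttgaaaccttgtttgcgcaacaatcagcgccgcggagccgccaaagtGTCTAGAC
Smad9 (chr3:54755432-54755581, plus strand): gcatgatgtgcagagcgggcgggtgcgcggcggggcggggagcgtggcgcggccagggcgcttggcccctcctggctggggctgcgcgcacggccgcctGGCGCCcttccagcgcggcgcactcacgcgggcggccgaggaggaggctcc
Bmpr2 (chr1:59764162-59764191, plus strand): ctccggcggccgGGCGCCgctgcctgcccc
Id2 (chr12:25096306-25096335, minus strand): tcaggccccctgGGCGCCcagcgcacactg
In Smad6 the palindrome begins 4 bases before the annotated start and runs across it. In Smad9, Bmpr2 and Id2 the GC-rich motif begins 51, 105 and 231 bases before the RefSeq start. For Bmpr2 and Id2 that start is not the outer end of the gene as counted. The counted Bmpr2 begins at 59763400, and the counted Id2, on the minus strand, begins at 25097140. Both stretches therefore lie inside the counted genes. A match describes letters in the window and does not show that a factor was bound there.

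Totals of normalized counts lay between 6028772 and 6052275 in WT and between 5698922 and 5765008 in CSE-KO. For Cth the WT libraries gave 29, 27 and 26 and the CSE-KO libraries 49, 43 and 63, higher in the libraries labelled knockout, which goes against the label. A value summed over the whole gene does not show whether part of it was deleted, so directions below are those of the libraries as labelled. CSE-KO 1 stood apart from CSE-KO 2 and 3: the squared difference per gene over the sum of the values, near 1 for counting noise alone, averaged 1.63 and 1.92 against these, 0.860 between CSE-KO 2 and 3, and 0.709 to 0.757 among the WT libraries. The WT libraries thus differed by less than counting noise would give in undivided counts. These values are read as divided by a library factor, which shifts that mark of 1 by an unknown amount. The p-values rest on a spread that may be technical. No gene in any library was above 0.843 normalized counts per exonic base. If reads with a shared start position had been removed, changes of densely covered genes such as Eng and Id1 would be understated, and values corrected for this are given beside theirs.

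Of the 10 genes, all passed the filter on low values, 3 rose (Smad6, Smad7 and Smad9), 6 fell (Eng, Acvrl1, Bmpr2, Id1, Id3 and Atoh8) and Id2 did not pass. Among all 13750 genes tested, 77.4% changed, 38.3% upward and 39% downward, so the count of 9 among the 10 is no result about this pathway. The groups did not overlap in 9 of the 10, where the share over all genes was 80.4%. The median log2 fold change of the 10 was −0.15, and that of all tested genes was 0.0014. Of the SMAD genes, Smad9 and Smad7 rose more than 2-fold and Smad6 by 26.0%, while the mean of the receptor gene Eng fell by 23.1%, that of Acvrl1 fell by 12.1% and that of Bmpr2 fell by 10.5%.

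**Figure D1:**
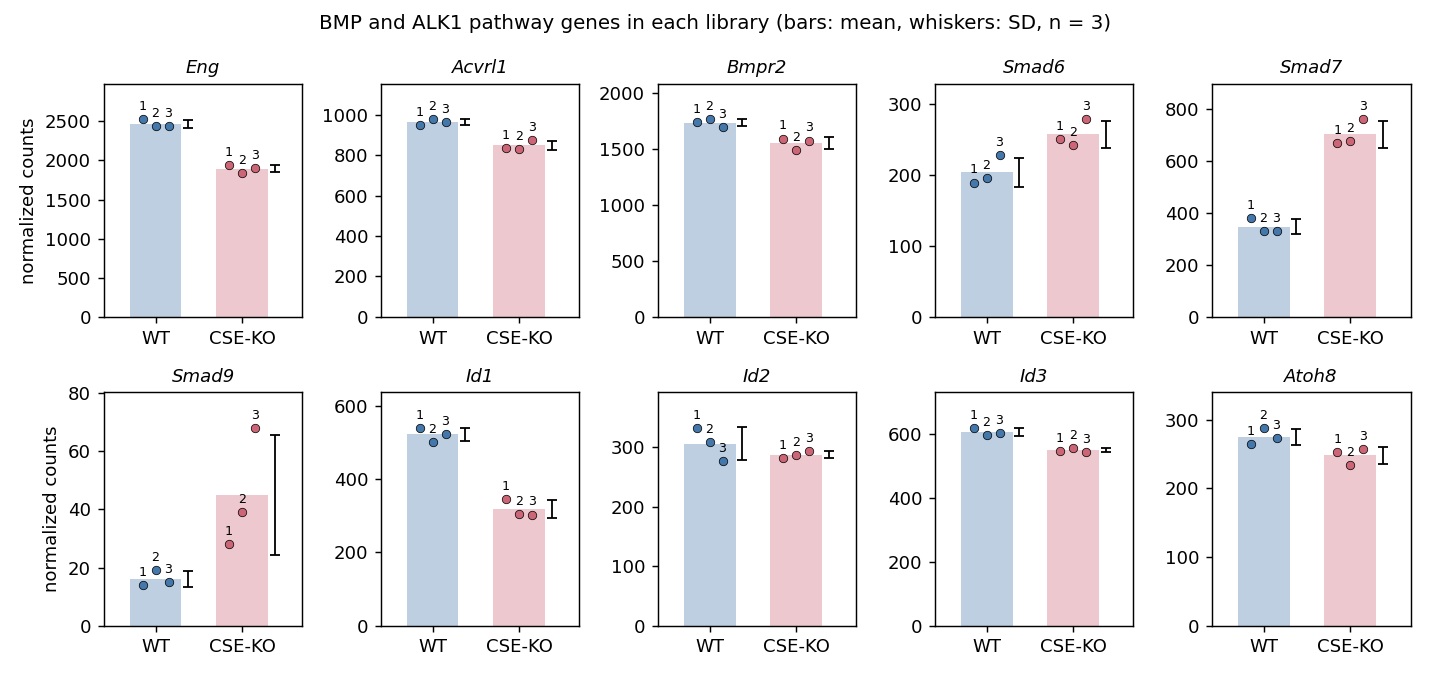
Normalized counts of the 10 genes in each library (vertical axes, each starting at 0) for WT and CSE-KO (horizontal axis). Points are single libraries numbered 1 to 3, bars are group means and whiskers are SD (n = 3). Smad7 lies at 667 to 759 in CSE-KO and 329 to 381 in WT, Id1 lies lower in all 3 CSE-KO libraries, and the groups overlap only in Id2.

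All 3 receptor genes fell. Eng, which encodes the co-receptor endoglin (ENSMUSG00000026814, chromosome 2, 32646595 to 32682669, mm10), gave 2526, 2437 and 2434 normalized counts across the WT libraries and 1937, 1843 and 1905 across the CSE-KO libraries. All CSE-KO libraries lay below all WT libraries, with a gap of 497 between the nearest values. The mean fell by 23.1%, from 2466 ± 52.3 to 1895 ± 47.8 (SD, n = 3), a log2 fold change of −0.38 (SE 0.025, adjusted p = 1.1e-07 by limma). With the correction for shared start positions, chosen after seeing the data, the log2 fold change was −0.57, since Eng was at 0.609 normalized counts per exonic base in WT. In 61 of its 4048 exonic bases Eng overlaps Fpgs on the other strand, and the sources used here do not give the strand setting of the counting. Fpgs had a mean of 315 among the WT and 269 among the CSE-KO libraries.

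Acvrl1, the gene of the ALK1 kinase (ENSMUSG00000000530, chromosome 15, 101128522 to 101145336), gave 951, 978 and 966 across WT and 836, 832 and 876 across CSE-KO. The groups lay 75 apart at their nearest values, and the mean fell by 12.1%, from 965 ± 13.5 to 848 ± 24.3 (log2 fold change −0.19, SE 0.030, adjusted p = 0.00015 by limma). An antisense gene, Gm16031, shares 127 of the 4265 exonic bases of Acvrl1. Bmpr2, the type II receptor kinase (ENSMUSG00000067336, chromosome 1, 59763400 to 59879014), gave 1740, 1763 and 1696 against 1591, 1487 and 1573. Its groups lay 105 apart, and its mean fell by 10.5%, from 1733 ± 34.0 to 1550 ± 55.6 (log2 fold change −0.16, SE 0.029, adjusted p = 0.00036 by limma). Neither Acvrl1 nor Bmpr2 passed a test against a fold of 1.2 (adjusted p = 1 for each, limma treat), and with equal library totals their log2 fold changes were −0.11 and −0.087. Eng passed that test (adjusted p = 0.00106).

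The inhibitory SMAD genes rose, Smad7 by 2.02-fold and Smad6 by 26.0%. SMAD7 blocks type I receptors of the BMP and TGF-beta branches and recruits ubiquitin ligases to them, while SMAD6 acts mainly on the BMP branch. Smad7 (ENSMUSG00000025880, chromosome 18, 75367529 to 75395935) gave 381, 329 and 331 across WT and 667, 676 and 759 across CSE-KO. The lowest CSE-KO value was 286 above the highest WT value. Its mean rose 2.02-fold, from 347 ± 29.5 to 701 ± 50.7, with a log2 fold change of 1.01 (SE 0.069, adjusted p = 9.4e-07 by limma). Leaving out each library in turn gave values between 0.95 and 1.08.

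Smad6 (ENSMUSG00000036867, chromosome 9, 63953076 to 64022059), whose window holds the SMAD palindrome printed above, gave 189, 195 and 227 across WT and 250, 242 and 278 across CSE-KO. WT 3 was the highest WT library and lay 15 below CSE-KO 2, the lowest of the other group. The mean rose by 26.0%, from 204 ± 20.4 to 257 ± 18.9 (log2 fold change 0.34, SE 0.081, adjusted p = 0.00282 by limma). Against a fold of 1.2 it did not pass (adjusted p = 0.336, limma treat).

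Smad9 encodes SMAD8, a receptor-activated SMAD, and was by far the lowest of the 10 genes. Smad9 (ENSMUSG00000027796, chromosome 3, 54755582 to 54801257) gave 14, 19 and 15 across WT and 28, 39 and 68 across CSE-KO. Every CSE-KO library was above every WT library, and CSE-KO 3 was well above the other CSE-KO libraries. The mean went from 16.0 ± 2.65 to 45.0 ± 20.7, a 2.81-fold rise (log2 fold change 1.38, SE 0.30, adjusted p = 0.00155 by limma). The log2 fold change was 1.04 without CSE-KO 3 and 1.67 without CSE-KO 1. With the WT libraries averaged and counted as 1 sample, the log2 fold change was 1.37 and its adjusted p was 0.0514 by limma. That fit takes its spread from the CSE-KO libraries alone.

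The Id genes, whose products bind E-protein transcription factors and keep them off DNA, did not move alike. Id1 (ENSMUSG00000042745, chromosome 2, 152736251 to 152737410) gave 539, 502 and 523 across WT and 346, 305 and 303 across CSE-KO. The groups lay 156 apart, and CSE-KO 1 was the CSE-KO library nearest to WT. Its mean fell by 39.0%, from 521 ± 18.6 to 318 ± 24.3 (log2 fold change −0.71, SE 0.056, adjusted p = 4.7e-07 by limma), and after the correction for shared start positions its log2 fold change was −0.90. Id3 (ENSMUSG00000007872, chromosome 4, 136143497 to 136145755) was at 618, 596 and 601 against 547, 555 and 542. The groups were 41 apart with little spread in either, and the mean fell by 9.42% (605 ± 11.5 to 548 ± 6.56, log2 fold change −0.14, SE 0.033, adjusted p = 0.00203 by limma). Scaling to equal library totals ended the call of Id3 (log2 fold change −0.069, adjusted p = 0.0815 by limma).

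Id2 (ENSMUSG00000020644, chromosome 12, 25093799 to 25097140) gave 332, 309 and 276 across WT and 282, 287 and 293 across CSE-KO. All 3 CSE-KO values lay inside the range of WT, whose spread was the wider (306 ± 28.1 against 287 ± 5.51). The log2 fold change was −0.085 with a 95% interval from −0.23 to 0.060 (adjusted p = 0.255 by limma), and without WT 3 it was −0.16 and passed (adjusted p = 0.0339). The other Id gene, Id4, was low and fell, from 56, 45 and 54 to 39, 32 and 35 (adjusted p = 0.00854 by limma).

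Atoh8, a basic helix-loop-helix factor induced by BMP and ALK1 signalling in endothelium (ENSMUSG00000037621, chromosome 6, 72206177 to 72235577), gave 265, 288 and 273 across WT and 253, 234 and 258 across CSE-KO. The nearest values of the groups were 7 apart. The mean fell by 9.81%, from 275 ± 11.7 to 248 ± 12.7 (log2 fold change −0.15, SE 0.059, adjusted p = 0.0375 by limma). The call was lost under 11 of 20 alternative settings. These included leaving out WT 2 (adjusted p = 0.141), WT 3 (0.0726) or CSE-KO 2 (0.145), equal library totals (0.254) and upper-quartile scaling (0.139).

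**Figure D2:**
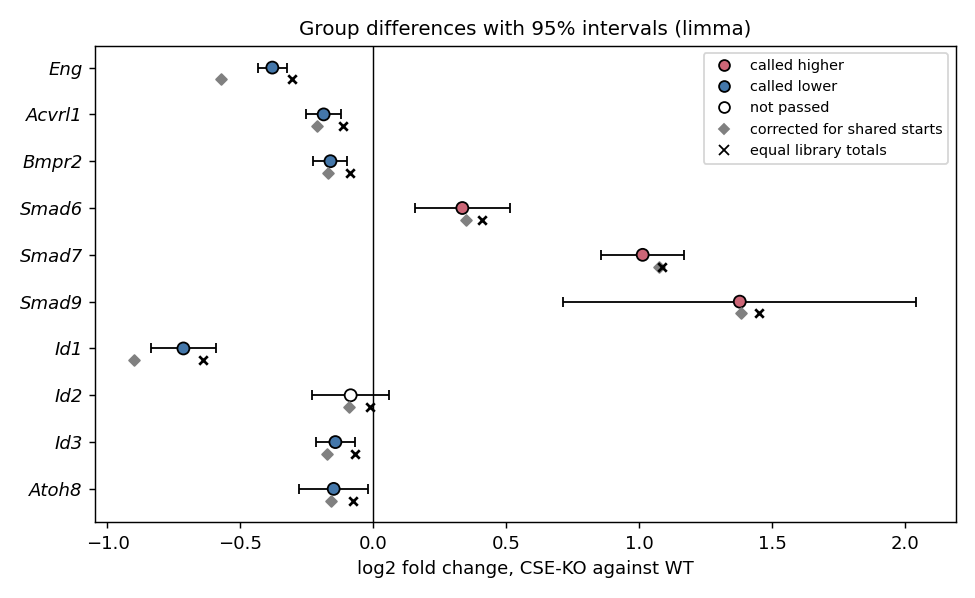
Log2 fold change of CSE-KO against WT (horizontal axis) for the 10 genes (vertical axis), with 95% intervals from limma as whiskers. Diamonds give the value corrected for shared start positions and crosses the value with equal library totals; Smad7 and Smad9 lie farthest to the right, Id1 farthest to the left, and the interval of Id2 spans 0.

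Ratios of paired genes within a library do not depend on scaling between libraries, and 4 such ratios, chosen with earlier results known, were compared by a two-sided exact permutation test over the 6 libraries, in which p cannot go below 0.1. The ratio of Id1 to Id3 was 0.872, 0.842 and 0.870 in WT and 0.633, 0.550 and 0.559 in CSE-KO (exact p = 0.1, 0.133 adjusted over 4). The ratio was lower in every CSE-KO library than in any WT library. The ratio of Smad7 to Smad6 was 2.02, 1.69 and 1.46 in WT and 2.67, 2.79 and 2.73 in CSE-KO (exact p = 0.1, 0.133 adjusted). Here the WT libraries varied more than the CSE-KO libraries, and the groups did not overlap. The ratio of Eng to Acvrl1 was 2.66, 2.49 and 2.52 against 2.32, 2.22 and 2.17 (exact p = 0.1, 0.133 adjusted). That of Bmpr2 to Acvrl1 was 1.80 ± 0.037 against 1.83 ± 0.065 (SD, n = 3) and overlapped (exact p = 0.7, 0.7 adjusted).

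Per kilobase of exon (GENCODE M21), Eng was the most abundant of the 10 genes in WT at 609 normalized counts per kb, followed by Id1 at 449, Id3 at 338 and Acvrl1 at 226. The ranges of Id2 (125) and Atoh8 (110) over the WT libraries overlapped, and these genes were not compared within each library. Bmpr2 (96.4), Smad7 (76.8) and Smad6 (63.5) came next, and Smad9 was at 2.98. In CSE-KO the order changed at 2 places. Id3 (306 per kb) stood above Id1 (274), and Smad7 (155) stood above Id2 (118), Atoh8 (99.1) and Bmpr2 (86.2). Bmpr2 and Smad6 (80.1) overlapped there, while Smad9 remained last at 8.38. Lengths are the union of all annotated exons, which overstates the length of the transcripts in use for a gene such as Bmpr2 with 17983 exonic bases.

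**Figure D3:**
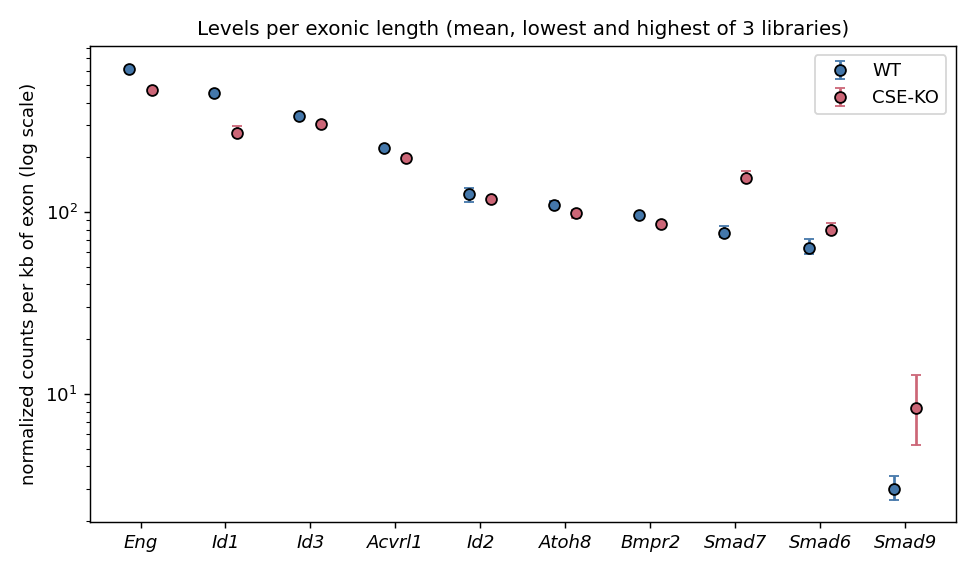
Normalized counts per kb of exon (vertical axis, log scale) for the 10 genes in order of their WT level (horizontal axis). Points are means and whiskers run from the lowest to the highest of 3 libraries; Eng leads with 609 (WT) and 468 (CSE-KO), and Smad9 is last with 2.98 and 8.38.

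Beyond the 10 genes, 75 tested genes of the pathway were compared from lists of its ligands, receptors, SMADs, antagonists, modulators and targets. Of these 35 rose, 31 fell and 9 did not pass, with a median log2 fold change of 0.039. Over all 13750 genes tested the median was 0.0014, 77.4% changed, 38.3% rose and 39% fell. Counts in the small lists below stand against these shares, and none was tested as a list or is read as particular to it. Among the ligands 1 of 5 tested rose and 3 fell. Bmp7 fell the most, from 103, 107 and 107 in WT to 18, 8 and 4 in CSE-KO (adjusted p = 0.00046 by limma), while the abundant Bmp6 was at 761 ± 31.9 and 717 ± 20.4 and did not pass (adjusted p = 0.0572). Bmp4 fell from 781, 780 and 794 to 702, 656 and 659. The genes of the ALK1 ligands BMP9 and BMP10, Gdf2 and Bmp10, had no row under these symbols in the table and so were not tested.

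Of the other BMP receptor and co-receptor genes 5 of 7 rose and 1 fell (38.3% and 39% over all genes tested), with a median log2 fold change of 0.33. Bmpr1a, the gene of the type I receptor ALK3, rose 3.67-fold, from 31, 29 and 32 to 108, 106 and 124 (adjusted p = 1.6e-07 by limma). Rgma, a co-receptor gene, rose from 85.0 ± 5.00 to 135 ± 3.00 (SD, n = 3), and the type II receptor gene Acvr2a was at 515 ± 27.8 and 529 ± 27.9 and did not pass. The TGF-beta receptor genes split 2 to 2. Tgfbr1, the type I kinase, rose from 359 ± 29.8 to 629 ± 7.02, Tgfbr2, the type II kinase, fell from 2886 ± 51.5 to 1820 ± 130, and Tgfbr3, the co-receptor betaglycan, fell from 1034, 1063 and 1037 to 282, 188 and 208 (adjusted p = 0.00011 by limma).

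All 5 other SMAD genes fell, with a median log2 fold change of −0.20, where 39% of all genes tested fell. Smad1 fell the most, from 1104, 1082 and 1068 to 761, 718 and 751 (log2 fold change −0.55, adjusted p = 3.6e-08 by limma). Smad5 fell from 1317, 1390 and 1287 to 1155, 1154 and 1174, and Smad4, the shared partner, from 915, 883 and 908 to 834, 834 and 826. Per kb of exon, Smad1 had a level of 173 among WT and 119 among CSE-KO libraries and Smad5 of 179 and 156, far above the level of Smad9 in each group.

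Secreted antagonists and modulators rose in 8 and fell in 4 of 13 tested genes (38.3% and 39% over all genes tested), with a median log2 fold change of 0.46. Bmper, an extracellular regulator of BMP4, rose from 82, 86 and 67 to 190, 219 and 251 (adjusted p = 9.3e-07 by limma). The antagonist genes Grem1 (204 ± 16.0 to 511 ± 48.5) and Fstl3 (172 ± 9.45 to 386 ± 26.7) and the protease gene Tll1, whose product cleaves chordin (763 ± 17.5 to 1221 ± 23.9), rose too. Twsg1, which binds BMPs with chordin, fell from 1130 ± 11.1 to 718 ± 2.08, and Nbl1 did not pass (adjusted p = 0.582 by limma).

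Intracellular modulators rose in 11 and fell in 6 of 20 (38.3% and 39% over all genes tested), with a median log2 fold change of 0.15. Smurf2, a ubiquitin ligase that SMAD7 brings to the receptors, rose from 1265, 1287 and 1297 to 2048, 2117 and 2160 (log2 fold change 0.72, adjusted p = 1.4e-09 by limma). Ppm1h, a phosphatase gene, rose from 121 ± 1.53 to 247 ± 6.93 (SD, n = 3). The small C-terminal domain phosphatase genes, whose products remove phosphate from SMADs, fell together, Ctdspl from 719 ± 15.5 to 332 ± 17.0, Ctdsp2 from 1274 ± 11.9 to 751 ± 48.3 and Ctdsp1 from 671 ± 2.08 to 432 ± 14.2. Fkbp1a, whose product holds type I receptors inactive, was at 1203 ± 36.1 and 1194 ± 7.37 and did not pass.

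The other genes known to respond to BMP9 or ALK1 in endothelium rose in 8 and fell in 9 of 20 tested (38.3% and 39% over all genes tested), with a median log2 fold change of −0.13. The list was not sorted by the direction of that response, so its counts and median give no direction of pathway activity. Pgf, placental growth factor, rose 4.31-fold, from 249, 238 and 239 to 1018, 1055 and 1053 (adjusted p = 2.2e-11 by limma). Esm1, a secreted proteoglycan gene, rose from 667 ± 12.5 to 1156 ± 22.5, and the matrix gene Ltbp4 fell from 1176 ± 41.0 to 476 ± 11.6. Hes1, a repressor shared with the Notch pathway, fell from 709, 655 and 679 to 338, 267 and 275. Tmem100, a membrane protein gene that depends on ALK1, was chosen for mention after its values were seen and fell from 101, 105 and 102 to 16, 6 and 6 (adjusted p = 1.1e-05 by limma). Large changes in this list went both ways. Msx2, very low in WT, had the largest rise, from 2, 3 and 2 to 41, 51 and 49 (adjusted p = 2.2e-07 by limma). The largest fall was that of Dll4, from 871, 869 and 827 to 118, 44 and 30 (adjusted p = 0.00276 by limma). Hey1 fell from 354, 350 and 289 to 98, 57 and 49 (adjusted p = 0.00066 by limma). Msx2, Dll4 and Hey1 were also chosen after their values were seen. Apln was at 1179 ± 28.0 and 1132 ± 19.3 and did not pass. Of the E-protein genes, Tcf3 fell from 864, 860 and 876 to 603, 545 and 576 (adjusted p = 1.0e-07 by limma), Tcf4 fell as well and Tcf12 rose (log2 fold change 0.18).

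**Figure D4:**
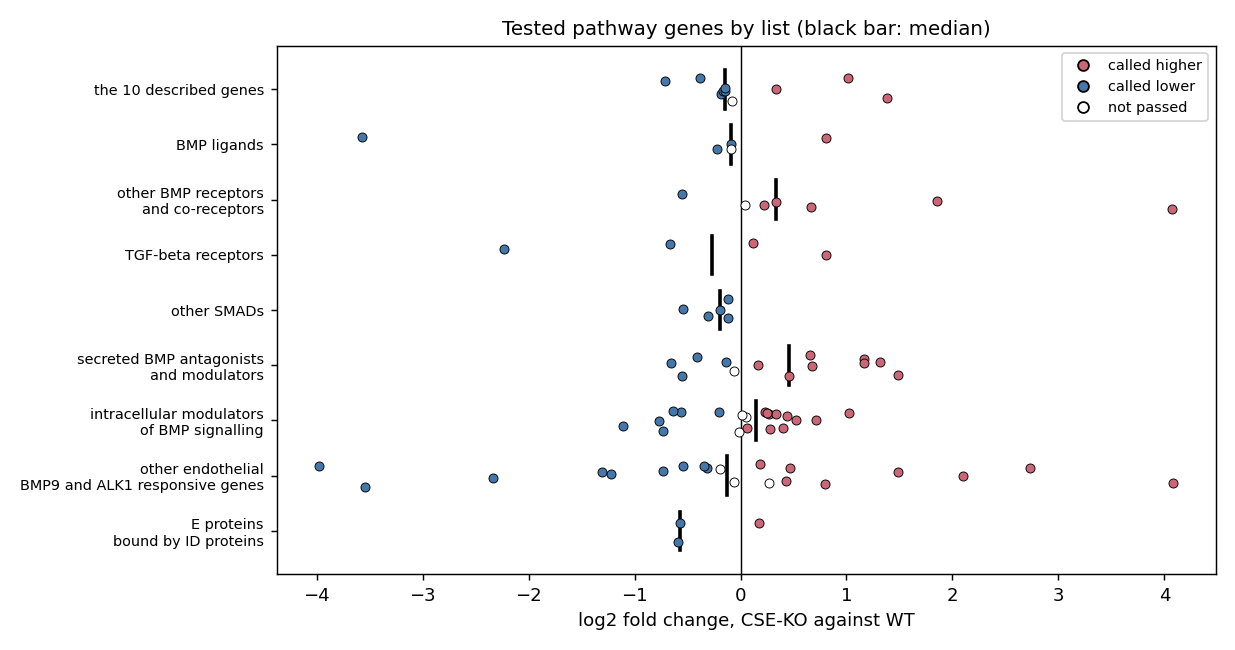
Log2 fold change of CSE-KO against WT (horizontal axis) for every tested gene of each list (vertical axis), coloured by call, with the list median as a black bar. The 5 other SMAD genes all lie left of 0, and the antagonist list has its median at 0.46.

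Markers of cell types moved with these results, and their part in them was not tested. Endothelial markers fell in 10 and rose in 0 of 12, with sums of 16330 to 16585 normalized counts in WT and 10710 to 11418 in CSE-KO. Their median log2 fold change was −0.68, from −1.92 for Flt1 to −0.082 for Cdh5 among the markers that fell. Lymphatic endothelial markers fell in 5 and rose in 1 (Pdpn, log2 fold change 0.15) of 6 tested (sums of 14886 to 15172 against 5513 to 7510). Macrophage markers rose in 11 and fell in 1 of 13, from sums of 1059 to 1111 to sums of 1518 to 1714. The marker that fell, Cd14 (788, 775 and 775 against 315, 216 and 187), made up most of the WT sums, and the other 12 summed to 281 to 336 in WT and 1205 to 1498 in CSE-KO, with Adgre1, Itgam, Marco and Ptprc at 0 in all WT libraries and Adgre1 at 36, 62 and 56 in CSE-KO. Mesothelial markers rose in all 4 tested (191 to 192 against 628 to 719), and mural markers rose in 3 and fell in 4 of 8 (624 to 671 against 848 to 946). The mural markers that rose were Acta2 (log2 fold change 1.3), Des (3.6) and Myh11 (1.2). Acta2, at 605, 626 and 651 in CSE-KO, made up most of the CSE-KO sums. Those that fell were Kcnj8 (log2 fold change −3.8), Abcc9 (−3.8), Cspg4 (−3.3) and Pdgfrb (−1.2). The higher mural sums therefore do not describe the mural markers as a set. Fibroblast markers rose in 3 of 6 (1076 to 1165 against 1151 to 1458), epithelial markers changed in 0 of 3 (275 to 318 against 273 to 279), where limma gave 1 gene, Krt18, an unadjusted p under 0.05 (0.0493), and no lymphocyte marker reached the filter on low values. In such bulk samples, fewer cells of a type and less RNA per cell cannot be told apart.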

How the data were processed

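The deposited table gives a whole-number score per gene and library, read here as a read count that the authors divided by a library factor and rounded. The unit was inferred from the values: recomputed median-ratio size factors were 1.003 to 1.008. Of the small whole numbers, WT 1 and CSE-KO 3 skipped 2 each and CSE-KO 1 skipped 1, as rounding after division can do. WT 2, WT 3 and CSE-KO 2 skipped 0, so this sign was seen in only part of the libraries. The submitters' processing notes list mm10 and, with no role or order, DESeq2 1.26.0, featureCounts 1.6.5, Picard 2.21.7, STAR 2.7.3a and Trimmomatic 0.39. The 13750 of 18956 genes that reached 10 in 3 or more libraries were fitted with limma 3.58.1 in R 4.3.3 on log2(value + 0.5), by group, with trended and robust moderation, two-sided. Fold changes on this scale understate the change of low genes. Exonic lengths came from GENCODE M21, in which 18940 IDs were found. The fit was also run on simulated data in which few genes changed, unlike the 77.4% called here. That run therefore does not give the error rate of the calls in these data.

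The 10 genes and the lists were chosen with earlier results of these data known. From each list, up to 5 called genes with at least a 1.5-fold change and a mean of at least 50 were named. The most abundant gene that did not pass was named too. Id4, Bmp4, Smad1, Smad4, Smad5, Tmem100, Msx2, Dll4, Hey1, Tcf4 and Tcf12 fall outside that rule and were named after their values were seen. Alternatives covered scaling (median-ratio, TMM, equal totals and upper quartile), pseudocount, filter, variance model, a fold threshold, a replicate block, left-out libraries, averaged libraries and a correction for reads at shared start positions (value u to −L ln(1 − u/L), L the exonic length). Counting error could not be given exactly because the read counts before division were not used here.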

Additional observations from a re-analysis of the deposited data

How the results depend on the processing

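All 10 genes kept the sign of their difference under every alternative that could be fitted, and Eng, Id1 and Smad7 kept their calls under all 20. Against a fold of 1.2, the count of all genes called went from 10639 to 6711, that of the 10 genes called lower from 6 to 2, and those of the other pathway genes from 35 to 21 higher and from 31 to 20 lower; the test's own construction asks for larger changes. Smad9 had no value at a minimum of 50. With WT 1 to 3 and CSE-KO 2 and 3 each counted as 1 sample, the log2 fold changes of Smad9 (1.25), Id3 (−0.14) and Atoh8 (−0.14) had adjusted p of 0.0708, 0.0692 and 0.203; that fit has 1 WT and 2 CSE-KO samples, so it has less power and the lost calls do not show smaller effects. Deviations of same-numbered libraries from their group means correlated at −0.001, 0.02 and 0.011. The WT libraries differed so little that these values cannot show whether the replicate numbers paired the libraries. With the replicate number as a block, 10440 genes were called, 3 of the 10 higher and 5 lower, and Atoh8 did not pass (adjusted p = 0.0673). Equal library totals moved the median of all genes to 0.077, which bears on Acvrl1, Bmpr2, Id3 and Atoh8, whose changes were small. Smad9, at 14 to 68 normalized counts, is the gene for which depth limits precision most.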
